A study of Rattus norvegicus with 54 samples.

Results

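The genes described here encode subunits of complex I (NADH dehydrogenase) and of ATP synthase (complex V), the first and the last enzyme of mitochondrial oxidative phosphorylation. Members were taken by name, as every probe set of the array that carries a single gene symbol of the *Ndufa*, *Ndufb*, *Ndufc*, *Ndufs* or *Ndufv* series followed by a digit, or a symbol starting with *Atp5*. This gave 57 probe sets of 49 genes among the 15310 probe sets with 1 symbol (29214 probe sets in all), 37 probe sets of 33 complex I genes and 20 probe sets of 16 ATP synthase genes. Their transcripts were followed in whole liver and in muscle of the hind limb of Wistar rats around birth, on 54 Affymetrix Rat Gene arrays, and each value is a log2 signal, on which a difference of 1 is a doubling. Liver was sampled from foetuses of 16, 20 and 22 days (F16, F20, F22), from neonates of 1 and 4 days (P1, P4) and from adults of 90 days (P90), with 4 arrays at each time point. Muscle was sampled at F16, F18, F20, F22, P1 and P4, with 5 arrays at each. The authors left the muscle F18 and adult liver arrays out of their own bioinformatic analyses and based no conclusions on them. The labels name no treatment and no mutant allele for any animal, and the foetuses were delivered by Caesarean section. The labels call the arrays biological replicates without naming litters, so p-values measure the spread between these animals only, and the number of arrays limits the precision. All liver arrays carry another run code in their labels than all muscle arrays, so tissue and run cannot be told apart and the 2 tissues are compared only by their changes over time.

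Complex I takes electrons from NADH at the tip of its peripheral arm (the N module), passes them along iron-sulfur clusters to ubiquinone (the Q module) and pumps protons through its membrane arm. ATP synthase uses the proton gradient to turn its ring of c subunits and a central stalk, which drives the catalytic head, while a peripheral stalk holds the head still. Foetal tissues live at low oxygen and rely more on glycolysis, and the switch to oxidative metabolism around birth is a known feature of liver and muscle maturation. Foetal liver is also a site of blood formation, which ends after birth.

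Each tissue carried its own marker genes, and the markers of other cells changed with time. The mean of 12 hepatocyte markers lay between 12.02 and 13.11 on the liver arrays, against 6.98 to 9.18 on the muscle arrays, and that of 9 myofibre markers between 6.85 and 9.41 in liver, against 9.92 to 13.22 in muscle. In liver, the mean of 12 erythroid markers was 12.06 to 12.15 at F16, 11.03 to 11.24 at P4 and 7.48 to 7.67 at P90, and 16 of 16 cell cycle genes were lower at P4 than at F16. In muscle, all 9 myofibre markers, 5 of 5 keratinocyte markers, 12 of 12 erythroid markers and 8 of 9 adipocyte markers rose between F16 and P4. The part of these cell mixtures in the results below was not tested, and in whole tissue fewer cells of a type and less RNA per cell cannot be told apart. Arrays of a group correlated at a mean r of 0.983 to 0.997 in liver and 0.988 to 0.996 in muscle, with liver P1 replicate 1 and muscle F22 replicate 5 lowest.

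Averaged over all members, muscle arrays dipped at F18 and were highest at P4, whereas liver arrays differed little. In muscle the mean over the 57 probe sets was 11.02, 10.76, 10.90, 10.87 and 10.62 on the 5 arrays of F16 and lay between 10.59 and 10.66 at F18. It was 10.74, 10.77, 10.73, 11.00 and 10.98 at F20, 10.75 to 10.96 at F22, 10.86 to 11.00 at P1 and 10.96 to 11.10 at P4. The F16 and F20 arrays were thus spread wider than those of the other time points, with 1 low array at F16 (replicate 5) and 2 high ones at F20 (replicates 4 and 5). In liver the mean was 10.32 to 10.43 at F16, 10.39 to 10.47 at F20, 10.26 to 10.37 at F22, 10.34 to 10.51 at P1, 10.28 to 10.37 at P4 and 10.28 to 10.32 at P90, so the ranges of neighbouring time points overlapped except between F20 and F22.

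**Figure D1:**
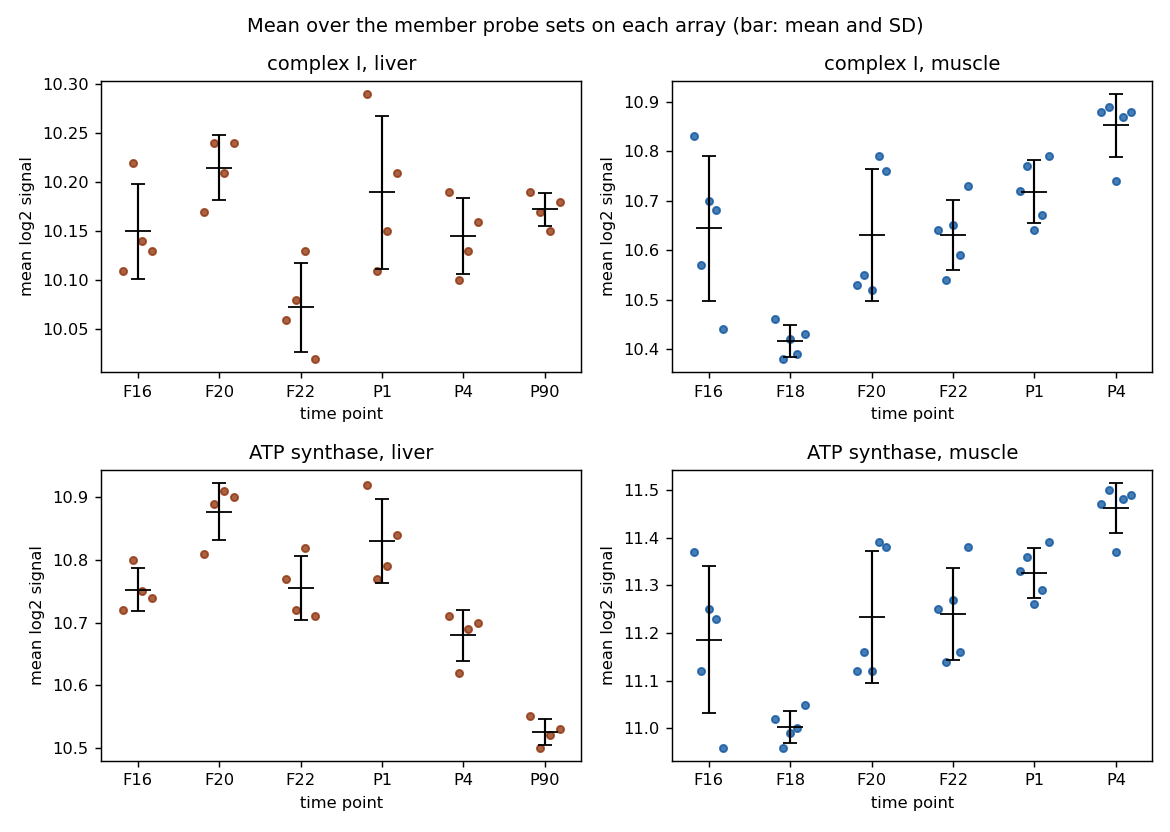
Mean log2 signal over the complex I probe sets (top) and the ATP synthase probe sets (bottom) on each array, in liver (left) and muscle (right), by time point; points are arrays, and bars give the mean and SD. In muscle both complexes are lowest at F18 and highest at P4, and in liver the ATP synthase mean is lowest at P90.

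Each interval between neighbouring time points was then tested with limma on all 15310 probe sets, and a probe set was called where its p, adjusted by the Benjamini-Hochberg method, did not exceed 0.05. Neighbouring intervals share the arrays of a time point, so a fall followed by a rise is not 2 independent results. In muscle, 32 members fell and none rose between F16 and F18 (19.3% of all probe sets fell, and 33.4% were called in either direction), with a median log2 change of -0.21 over the members against -0.03 over all probe sets. Between F18 and F20, 35 rose and none fell (14.6% of all probe sets rose, 30.6% called in either direction, median 0.20 against -0.01). Both counts rested partly on a few arrays: without muscle F16 replicate 1 the number that fell was 20, and without F20 replicate 4 or 5 the number that rose was 19 or 22. With F16 replicate 5, F20 replicates 4 and 5 and F22 replicate 5 all left out, 46 members fell between F16 and F18 and 17 rose between F18 and F20. Of 72 probe sets of mitochondrial ribosomal proteins, a list added after the values were seen, 49 fell between F16 and F18 and 27 rose between F18 and F20, counts that were not refitted without these arrays. Their mean was 9.94 and 9.91 on F20 replicates 4 and 5, against 9.76 to 9.79 on the other F20 arrays, and it was highest on replicate 1 (10.12) and lowest on replicate 5 (9.74) at F16, as was the mean over the members. Of 43 proteasome probe sets, 22 fell between F16 and F18 (median -0.16) and 9 rose between F18 and F20 (0.10), also not refitted. The proteasome mean was 10.36 and 10.32 on F20 replicates 4 and 5, against 10.22 to 10.24 on the other F20 arrays. At F16 it was highest on replicate 1 (10.46) and lowest on replicate 5 (10.22). Between F16 and F18, 8 of 9 myofibre markers (median 1.08), 7 of 10 fibroblast markers (0.87), 4 of 5 keratinocyte markers (0.80) and 5 of 12 erythroid markers (0.46) rose, and 9 of 16 cell cycle genes fell (-0.22); the part of these in the fall of the members was not tested.

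The later muscle intervals brought smaller changes. Between F20 and F22, 2 members rose and none fell (6.02% rose and 13.8% fell of all probe sets, 19.8% in either direction), or 7 with those 4 arrays left out. Between F22 and P1, 7 rose and none fell (9.5% and 8.82% of all, 18.3% together), a share near that of all probe sets, although the count was 12 without F22 replicate 5 and 20 without the 4 arrays. Between P1 and P4, 19 rose and 1 fell (19.2% and 14.7% of all, 33.9% together, median 0.13 against 0.02). Over the whole span, 36 of 57 members rose between F16 and P4 and none fell, whereas 26.7% of all probe sets rose and 35% fell (61.8% together). Centring each array on its median left 32 that rose and made 2 fall. The ATP synthase probe sets took the larger share, with 17 of 20 higher (median 0.29), against 19 of 37 of complex I (median 0.17), a difference that was not tested.

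**Figure D2:**
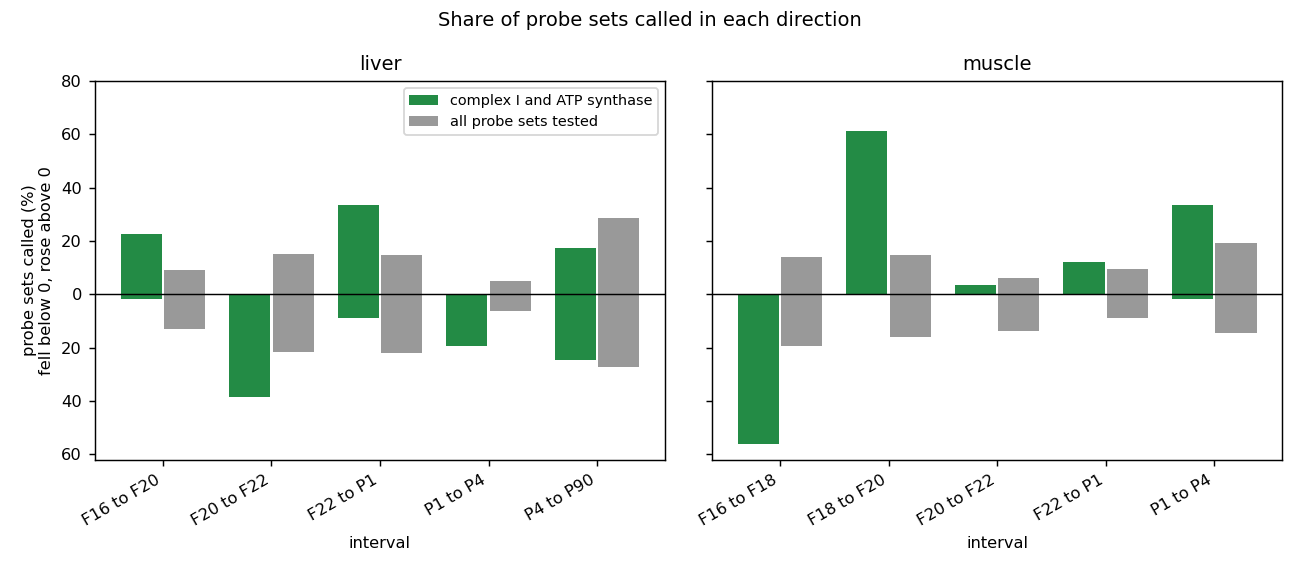
Share of probe sets called in each interval, in percent, with those that rose above 0 and those that fell below 0, for the 57 complex I and ATP synthase probe sets (green) and for all 15310 probe sets (grey), in liver (left) and muscle (right). The 2 muscle intervals on either side of F18 stand out, with 56.1% of the members falling and then 61.4% rising.

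In liver the direction alternated from interval to interval. Between F16 and F20, 13 members rose and 1 fell (9.22% and 13.2% of all probe sets, 22.4% together, median 0.10 against -0.04), a count of 14 calls that was 9 without F20 replicate 3. Between F20 and F22 none rose and 22 fell (15.3% and 21.6% of all, 36.9% together, median -0.14 against -0.02), or 13 without F22 replicate 4. Across birth, between F22 and P1, 19 rose and 5 fell (14.8% and 21.9% of all, 36.7% together, median 0.08 against 0.00). Between P1 and P4 none rose and 11 fell (4.87% and 6.1% of all, 11% together, median -0.07 against 0.01), of which 8 were ATP synthase probe sets and 3 complex I, or 7 members in all without P4 replicate 2.

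Over the longer spans in liver the balance of directions depended on the scaling. Between P4 and P90, 10 members rose and 14 fell (28.8% and 27.1% of all, 55.9% together), and between F16 and P90, 12 rose and 18 fell (37.9% and 35.5% of all, 73.5% together). Between F16 and P4, 8 rose and 16 fell (23.1% and 35% of all, 58% together). With the liver arrays quantile-normalised once more, the splits turned to 20 higher and 9 lower (P4 to P90), 24 and 6 (F16 to P90) and 20 and 8 (F16 to P4). With each array centred on its median they were 11 and 11, 12 and 17, and 6 and 21, and the median of all probe sets between P4 and P90 was 0.12, against 0.06 as deposited. The members called in the same direction under all 3 scalings numbered 10 higher and 9 lower (P4 to P90), 12 and 6 (F16 to P90) and 6 and 8 (F16 to P4). Tested over all 6 time points at once, 49 of 57 members changed in liver (84.3% of all probe sets did) and 54 of 57 in muscle (75% of all).

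**Figure D3:**
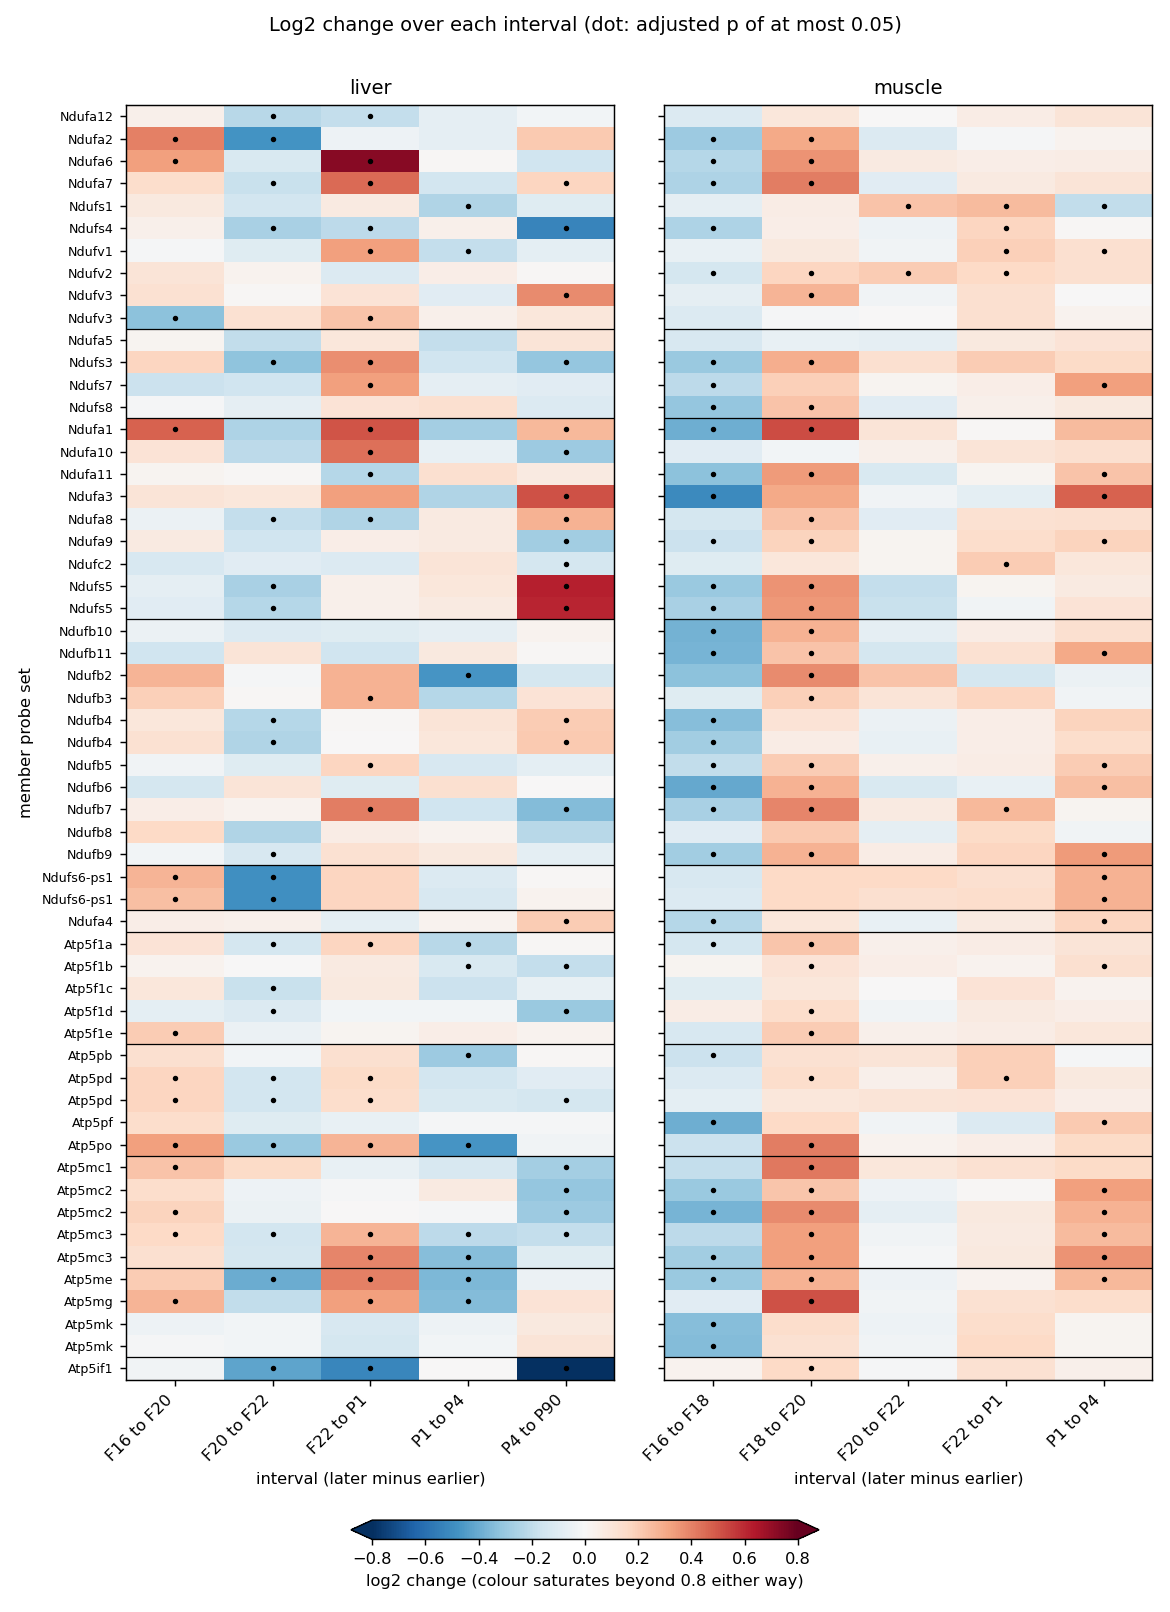
Log2 change of each of the 57 member probe sets (rows, grouped by the part of the enzyme) over each interval (columns, later minus earlier) in liver (left) and muscle (right), with red for higher and blue for lower at the later time point and a dot where the adjusted p was at most 0.05. The first muscle column is blue and the second red over most rows. In liver, 40 of the 57 changes were above 0 between F16 and F20, 12 between F20 and F22 and 37 between F22 and P1. Above 0 were 20 between P1 and P4 and 26 between P4 and P90.

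Among the core subunits of the N module, *Ndufs1* and *Ndufv2* rose late in muscle, and *Ndufv1* joined them at birth. *Ndufs1*, the largest iron-sulfur subunit, had 10.91, 10.78, 10.81, 10.76 and 10.80 on the muscle arrays of F22, against 10.58, 10.58, 10.49, 10.67 and 10.57 at F20, and all F22 arrays lay above all F20 arrays. The change was 0.23 ± 0.05 (SE, limma adjusted p = 9.3e-04), and *Ndufs1* rose again by 0.25 ± 0.05 between F22 and P1 (adjusted p = 3.5e-04), with 11.08, 11.16, 10.95, 10.99 and 11.14 at P1. It was then the single member that fell between P1 and P4, by 0.20 to 10.93, 10.96, 10.86, 10.81 and 10.76, with the groups overlapping by 1 array. *Ndufv2*, an iron-sulfur subunit, rose by 0.20 ± 0.05 between F20 and F22 (limma adjusted p = 0.0085), and *Ndufv1*, which binds the flavin that accepts electrons from NADH, rose by 0.19 ± 0.05 between F22 and P1 (adjusted p = 0.0094). From F16 to P4 the 3 genes rose in muscle by 0.27 (*Ndufs1*), 0.51 (*Ndufv2*) and 0.32 (*Ndufv1*).

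In liver *Ndufv1* had 10.92, 10.78, 10.90 and 10.91 at P1, against 10.55, 10.56, 10.56 and 10.53 at F22, a rise of 0.33 across birth with no overlap, and 10.68, 10.65, 10.70 and 10.72 at P4, a fall of 0.19. Its rise across birth did not differ between the tissues past the test (liver minus muscle 0.14 ± 0.06 SE, limma adjusted p = 0.099). Its change from F16 to P4 was 0.03 ± 0.04 and did not pass the test (limma adjusted p = 0.54). *Ndufs1* was lower by 0.24 at P4 than at F16 (limma adjusted p = 0.0088, and 0.065 with quantile normalisation) and by 0.34 at P90 (adjusted p = 2.9e-04). *Ndufv2* was among the 8 probe sets that did not pass the test over time in liver (adjusted p = 0.3).

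Accessory subunits of the N module moved in opposite directions in liver. *Ndufa6*, a small subunit of the LYR family, rose to 10.56, 10.46, 10.39 and 10.51 at P1, against 9.80, 9.75, 9.90 and 9.55 at F22. The groups did not overlap, and the rise of 0.73 ± 0.08 was 1.66-fold (limma adjusted p = 7.9e-08). *Ndufa6* had 9.57, 9.53, 9.69 and 9.39 at F16 and stayed between 10.29 and 10.64 on all arrays of P4 and P90, which made it 1.93-fold higher at P4 and 1.72-fold higher at P90 than at F16. In muscle it was 0.31 higher at P4 than at F16.

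*Ndufs4*, an accessory subunit whose loss causes Leigh syndrome in humans, moved the other way in liver. It averaged 12.45 at F16, 12.50 at F20, 12.23 at F22, 12.03 at P1, 12.07 at P4 and 11.53 at P90, with SDs of 0.02 to 0.09. At P90 it had 11.57, 11.50, 11.52 and 11.55, against 12.11, 12.06, 12.01 and 12.08 at P4, a fall of 0.53 ± 0.05 (limma adjusted p = 4.3e-09), and at P90 it was 1.89-fold lower than at F16. The smaller fall across birth, by 0.21 ± 0.05 (adjusted p = 0.0023), was 0.12 with quantile normalisation (adjusted p = 0.064). In muscle *Ndufs4* fell by 0.25 between F16 and F18, rose by 0.17 across birth and at P4 stood 0.06 below F16, which did not pass the test.

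Among the other N module subunits, *Ndufa2* rose by 0.40 ± 0.09 in liver between F16 and F20 (limma adjusted p = 0.0017), with 8.32, 8.54, 8.31 and 8.37 at F20 against 7.86, 8.08, 8.08 and 7.91 at F16. By F22 it had fallen by 0.48 to 7.92, 7.89, 8.05 and 7.77, so that F20 alone stood above the neighbouring time points. *Ndufa7* rose by 0.45 ± 0.07 across birth (adjusted p = 9.6e-06) and was 0.44 higher at P90 than at F16. *Ndufa12* was 0.43 lower in liver at P4 than at F16 (adjusted p = 4.0e-07), with 10.75, 10.78, 10.79 and 10.86 at P4 against 11.16, 11.24, 11.22 and 11.29 at F16. *Ndufv3* rose by 0.38 ± 0.05 between P4 and P90 on its brighter probe set (adjusted p = 2.4e-06), whereas its other probe set changed by 0.09 and was not called. Both probe sets of the gene listed as *Ndufs6-ps1* fell by 0.49 between F20 and F22 in liver. RefSeq lists that gene as a pseudogene related to *Ndufs6*, an N module subunit, so which copy was measured is uncertain.

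In the Q module, which passes electrons to ubiquinone, *Ndufs3* fell by 0.32 in liver between F20 and F22, rose by 0.37 across birth and fell by 0.31 between P4 and P90, each call passing the test. *Ndufs7* rose across birth by 0.33 in liver and by 0.33 between P1 and P4 in muscle. Of the 4 Q module probe sets, *Ndufa5* and *Ndufs8* passed between no neighbouring time points in liver.

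Of the 9 probe sets listed here under the proximal membrane arm, 5 were higher and 3 lower in liver at P90 than at P4 (28.8% of all probe sets rose and 27.1% fell). The list places *Ndufa9* in this arm although it lies near the ubiquinone site, and the Q module counts leave it out. The lower ones were *Ndufa9* (-0.28), *Ndufa10* (-0.29) and *Ndufc2* (-0.14), of which *Ndufa9* alone was called under all 3 scalings. *Ndufs5*, a small protein of the intermembrane space side, had 10.43, 10.39, 10.34 and 10.42 at P90, against 9.73, 9.75, 9.83 and 9.78 at P4, a rise of 0.62 ± 0.08 (limma adjusted p = 9.8e-07) on 1 probe set and of 0.61 on the other. *Ndufa3* rose by 0.51 ± 0.14 over the same span (adjusted p = 0.0029) and was 1.74-fold higher at P90 than at F16. *Ndufa1*, an X-linked subunit needed to build the membrane arm, rose by 0.47 ± 0.11 between F16 and F20 (adjusted p = 0.0033) and by 0.50 ± 0.11 across birth (adjusted p = 8.6e-04). Its liver arrays at P1 had 8.68, 8.29, 8.13 and 8.61, against 8.12, 7.68, 8.08 and 7.85 at F22, groups that were separated by only 0.01, and it was 1.63-fold higher at P90 than at F16.

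*Ndufa8*, a further intermembrane space subunit, dipped around birth in liver. It had 10.31, 10.03, 10.14 and 10.27 at P1, against 10.32, 10.54, 10.38 and 10.48 at F22, a fall of 0.24 ± 0.07 (limma adjusted p = 0.011) that was 0.19 without P1 replicate 2 (adjusted p = 0.054). By P90 it was 0.28 higher again than at P4. *Ndufa9*, which lies near the ubiquinone site, changed by 0.03 ± 0.07 in liver between F16 and P4 (adjusted p = 0.69) and was 0.24 lower at P90 than at F16 (adjusted p = 0.0024, but 0.13 with quantile normalisation). In muscle *Ndufa9* rose by 0.35 ± 0.06 from F16 to P4, to 11.77, 11.75, 11.55, 11.78 and 11.87 at P4 against 11.55, 11.35, 11.47, 11.42 and 11.19 at F16. The P4 arrays all lay at or above the highest F16 array.

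In the distal membrane arm 8 of 11 probe sets were lower in muscle at F18 than at F16, and 8 of 11 were higher at F20 than at F18 (19.3% of all probe sets fell and 14.6% rose); in the proximal arm it was 6 of 9 each way. *Ndufb6* had 11.86 on 2 arrays of F18, 11.96 on 2 and 12 on the fifth, against 12.51, 12.30, 12.39, 12.37 and 12.12 at F16, a fall of 0.41 ± 0.09 with no overlap (limma adjusted p = 6.4e-04). At F20 it had 12.04, 12.01, 12.05, 12.51 and 12.45, and at P4 it stood 0.07 below F16, which did not pass the test (adjusted p = 0.53). *Ndufa3*, of the proximal arm, rose by 0.47 ± 0.13 in muscle between P1 and P4 (limma adjusted p = 0.005), and *Ndufc2* by 0.20 across birth. *Ndufb9* rose by 0.34 ± 0.09 and *Ndufb11*, which is X-linked, by 0.30 ± 0.07 between P1 and P4 (adjusted p = 0.0031 and 0.0013). *Ndufb9* had 11.99, 11.99, 11.85, 11.97 and 12.05 at P4, against 11.64, 11.72, 11.60, 11.54 and 11.67 at P1. In liver *Ndufb7* rose by 0.41 across birth and fell by 0.35 ± 0.05 between P4 and P90 (adjusted p = 5.7e-06), and *Ndufb6* did not pass the test over time.

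*Ndufa4*, named as a complex I subunit but now assigned to complex IV, changed in neither tissue between F16 and P4 beyond the test. The change was 0.05 ± 0.05 in liver (limma adjusted p = 0.36, although 0.14 with quantile normalisation passed at 0.0064) and 0.04 ± 0.05 in muscle (adjusted p = 0.55, and -0.02 with centred arrays). In adult liver it was higher, with 12.34, 12.37, 12.34 and 12.35 at P90 against 12.18, 12.14, 12.15 and 12.16 at P4. Its relative *Ndufa4l2* was not measured under a single symbol.

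The catalytic head and central stalk of ATP synthase rose in muscle over the whole span. All 5 of their subunits were higher at P4 than at F16 (26.7% of all probe sets rose and 35% fell). Among them *Atp5f1b* (catalytic beta) rose by 0.34 ± 0.04 and *Atp5f1a* (alpha) by 0.28 ± 0.05 (limma adjusted p = 3.0e-09 and 1.3e-05). *Atp5f1b* had 13.05, 13.01, 13.02, 13.02 and 13.06 at P4, against 12.75, 12.69, 12.75, 12.60 and 12.64 at F16. In liver *Atp5f1b* averaged 12.74 at F16, 12.84 at P1 and 12.72 at P4, and had 12.54, 12.54, 12.53 and 12.54 at P90, a fall of 0.20 ± 0.04 from F16 (adjusted p = 5.9e-05) that was 0.08 with quantile normalisation (adjusted p = 0.071). *Atp5f1a* differed by -0.07 ± 0.04 in liver between F16 and P90 as deposited and by 0.22 with quantile normalisation (limma adjusted p = 4.4e-05). *Atp5f1d*, the delta subunit of the central stalk, fell under every scaling, to 12.51, 12.48, 12.48 and 12.45 in liver at P90, against 12.98, 13.06, 13.01 and 13.00 at F16, a change of -0.53 ± 0.04 (adjusted p = 4.4e-11).

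In the peripheral stalk, *Atp5po* (the oligomycin sensitivity-conferring protein) alternated in liver with every interval up to P4. Its liver arrays had 9.57, 9.72, 9.73 and 9.65 at F16, 9.92, 10.04, 9.97 and 10.07 at F20, and 9.78, 9.68, 9.75 and 9.58 at F22. They had 10.10, 9.94, 9.86 and 9.95 at P1, 9.66, 9.32, 9.52 and 9.49 at P4 and 9.53, 9.39, 9.48 and 9.47 at P90. F20 and P1 were high, and no array of either overlapped with its neighbours. The changes were 0.33, -0.30, 0.27 and -0.47 up to P4, all past the test, the last with a limma adjusted p of 1.0e-04. The membrane subunits *Atp5me* and *Atp5mg*, which lie where the enzyme forms dimers, fell with it between P1 and P4, by 0.36 and 0.35 (adjusted p = 0.0049 and 0.0044).

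In muscle, *Atp5mg* rose most of all members between F16 and P4, by 0.64 ± 0.10 or 1.56-fold (limma adjusted p = 1.1e-06), with 10.63, 10.74, 10.37, 10.60 and 10.60 at P4 against 10.34, 9.79, 9.99, 9.99 and 9.64 at F16. Between F18 and F20 alone the rise was 0.51. *Ndufa1* had the largest rise of that interval, 0.52 ± 0.11, after a fall of 0.39 ± 0.11 between F16 and F18 (adjusted p = 8.8e-04 and 0.0095). *Atp5pf*, a peripheral stalk subunit, fell by 0.39 ± 0.08 between F16 and F18 (adjusted p = 4.7e-04) and did not pass the test between F16 and P4, at -0.17. Both *Atp5mk* probe sets likewise fell between F16 and F18 and changed by -0.07 and -0.09 between F16 and P4, which did not pass the test.

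The c ring turns with the proton flow, and its subunit is encoded by *Atp5mc1*, *Atp5mc2* and *Atp5mc3*, which give the same mature protein behind different import sequences. In muscle all 5 probe sets of the 3 genes rose between F18 and F20 (14.6% of all probe sets rose). All 5 also stood above F16 at P4 (26.7% of all rose). At F20 *Atp5mc1* had 11.47 and 11.44 on replicates 4 and 5, against 11.01 to 11.13 on the other arrays. *Atp5mc1* led, with 11.56, 11.54, 11.52, 11.64 and 11.64 at P4 against 11.24, 10.96, 11.22, 11.03 and 10.50 at F16, a rise of 0.59 ± 0.11 (limma adjusted p = 3.2e-05). *Atp5mc3* rose by 0.42 ± 0.09 and *Atp5mc2* by 0.30 ± 0.09 (adjusted p = 1.9e-04 and 0.004), and none of the 3 genes overlapped between the time points.

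The liver separated the c ring genes by time. Across birth both probe sets of *Atp5mc3* rose, by 0.27 and 0.39, while *Atp5mc1* changed by -0.06 and the brighter probe set of *Atp5mc2* by -0.00, neither of them called; this contrast between genes was not tested. *Atp5mc3* had 11.91, 11.75, 11.86 and 11.82 at P1, against 11.61, 11.44, 11.63 and 11.57 at F22. In adult liver 4 of 5 c ring probe sets were lower than at P4, by 0.19 to 0.31 (27.1% of all probe sets fell), and those of *Atp5mc1* and *Atp5mc2*, but not *Atp5mc3*, were called under all 3 scalings. Between F16 and P90 the c ring genes changed by -0.08 (*Atp5mc1*), -0.18 (*Atp5mc2*) and -0.11 (*Atp5mc3*), and with quantile normalisation by 0.08, -0.03 and 0.07, so the sign of *Atp5mc1* and *Atp5mc3* depended on the scaling.

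The member that changed most was *Atp5if1*, the inhibitor that blocks ATP hydrolysis by the enzyme when the proton gradient fails. In liver it had 11.94, 12.01, 11.88 and 11.88 at F16, 11.84, 11.88, 11.95 and 11.92 at F20, and 11.49, 11.35, 11.59 and 11.48 at F22. It had 11.19, 10.91, 10.81 and 10.92 at P1, 11.01, 10.83, 10.99 and 10.99 at P4, and 9.49, 9.53, 9.56 and 9.53 at P90. The level thus stepped down before birth, across birth and again towards the adult, without overlap at each of these steps. The falls were 0.42 ± 0.07 between F20 and F22 (limma adjusted p = 3.3e-05), 0.52 ± 0.07 between F22 and P1 (adjusted p = 1.8e-06) and 1.43 ± 0.07 between P4 and P90 (adjusted p = 1.9e-14), while the change of -0.00 between P1 and P4 did not pass the test. *Atp5if1* was 1.96-fold lower at P4 and 5.28-fold lower at P90 than at F16, and it fell under all 3 scalings. The erythroid markers fell over the same steps, 8 of 12 between F20 and F22 (median -0.53), 12 of 12 across birth (median -0.63) and 12 of 12 between P4 and P90 (median -3.29), as did 16 of 16 cell cycle genes at each, and their part in the fall of *Atp5if1* was not tested.

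In muscle *Atp5if1* went the other way. It had 11.72, 11.80, 11.78, 11.79 and 11.86 at P4, against 11.60, 11.39, 11.47, 11.54 and 11.26 at F16, a rise of 0.34 ± 0.06 with no overlap (limma adjusted p = 1.2e-05). Erythroid markers rose in muscle over that span as well, by a median of 1.57. So did myofibre (2.11), granulocyte (2.05), adipocyte (1.90), keratinocyte (1.83), macrophage (1.42) and fibroblast markers (1.23). Cell cycle genes fell (-0.56), and the median of hepatocyte markers was 0.08. The part of these cell mixtures in the rise of *Atp5if1* was not tested.

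**Figure D4:**
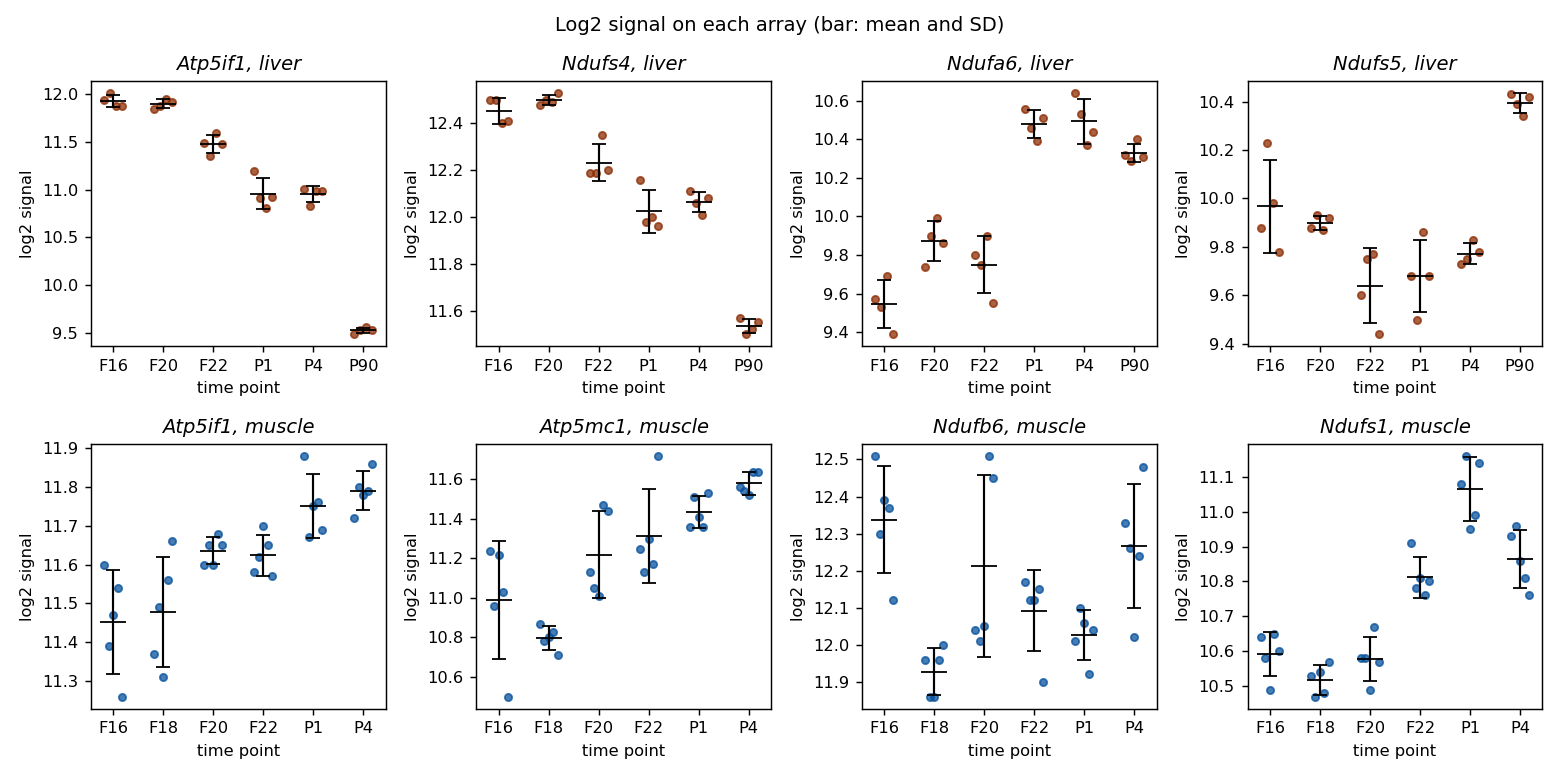
Log2 signal of single genes on each array by time point, in liver (top: *Atp5if1*, *Ndufs4*, *Ndufa6*, *Ndufs5*) and muscle (bottom: *Atp5if1*, *Atp5mc1*, *Ndufb6*, *Ndufs1*); points are arrays, bars give the mean and SD, and each panel has its own scale. *Atp5if1* lies at 9.49 to 9.56 on the adult liver arrays and at 11.88 to 12.01 at F16, and the muscle F20 panels show replicates 4 and 5 above the other arrays for *Atp5mc1* and *Ndufb6*.

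The promoters of 4 members are shown with the matches of 4 motifs of regulators known for nuclear genes of mitochondria. These genes and motifs were chosen after the values were seen. The motifs were the NRF1 core GCATGCGC, the ETS core CCGGAAG bound by GABP, the AAGGTCA element of oestrogen-related receptors, and the YY1 initiator AAGATGGC, searched on both strands from 250 bases before to 50 after the start of transcription (RefSeq, GRCr8, 45 of 49 genes matched). The NRF1 core was in 6 of 45 member promoters (13.3%), against 2.47% of all 33469 promoters, and the ETS core in 11 (24.4%), against 8.75%. The AAGGTCA element was in 7 (15.6%), against 4.61%, and the YY1 initiator in 10 (22.2%), against 3.17%. The 33469 promoters outnumber the 14506 genes measured under a single symbol, and they were not limited to measured or expressed genes. Whether the members differ from comparable genes in these shares was therefore not tested. No motif was found in 21 members and 3 or more motifs in 3 (*Atp5me*, *Atp5mg* and *Ndufa6*).

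The sequences below belong to *Atp5if1*, which fell in liver (chr5:150026628-150026927, minus strand), *Ndufa6*, which rose across birth (chr7:115750268-115750567, minus strand), *Atp5po*, which alternated (chr11:44657434-44657733, minus strand), and *Atp5mc3*, the c ring gene that rose across birth (chr3:79220615-79220914, minus strand). Capitals mark the motif matches, and the first base of the transcript is base 251.
Atp5if1: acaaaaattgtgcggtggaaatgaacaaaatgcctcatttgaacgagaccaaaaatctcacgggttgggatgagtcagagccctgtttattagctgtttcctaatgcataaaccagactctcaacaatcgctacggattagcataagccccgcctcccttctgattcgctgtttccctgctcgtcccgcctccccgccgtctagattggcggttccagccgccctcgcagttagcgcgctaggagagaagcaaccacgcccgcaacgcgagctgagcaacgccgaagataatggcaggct
Ndufa6: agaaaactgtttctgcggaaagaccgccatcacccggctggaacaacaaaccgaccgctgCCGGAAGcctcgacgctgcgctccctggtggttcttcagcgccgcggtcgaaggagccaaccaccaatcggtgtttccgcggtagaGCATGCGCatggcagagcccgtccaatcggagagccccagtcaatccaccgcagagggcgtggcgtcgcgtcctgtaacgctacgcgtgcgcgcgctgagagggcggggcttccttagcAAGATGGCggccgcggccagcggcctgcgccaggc
Atp5po: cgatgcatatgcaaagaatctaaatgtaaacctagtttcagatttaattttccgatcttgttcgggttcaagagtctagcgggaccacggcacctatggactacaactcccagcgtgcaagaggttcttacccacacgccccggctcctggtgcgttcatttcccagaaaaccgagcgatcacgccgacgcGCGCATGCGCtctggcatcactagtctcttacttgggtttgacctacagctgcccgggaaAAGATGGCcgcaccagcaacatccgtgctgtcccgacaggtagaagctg
Atp5mc3: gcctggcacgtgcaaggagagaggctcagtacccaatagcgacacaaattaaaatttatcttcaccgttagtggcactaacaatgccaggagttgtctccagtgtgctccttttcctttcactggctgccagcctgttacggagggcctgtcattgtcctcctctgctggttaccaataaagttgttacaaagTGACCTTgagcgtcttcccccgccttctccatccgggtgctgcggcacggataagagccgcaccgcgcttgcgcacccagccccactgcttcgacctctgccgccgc
The *Atp5if1* window held none of the 4 motifs. *Ndufa6* had the ETS core at bases 61 to 67, the NRF1 core at 147 to 154 and the YY1 initiator at 266 to 273. *Atp5po* had overlapping matches of the NRF1 core, 1 on each strand, at 192 to 201 and the YY1 initiator at 252 to 259, and *Atp5mc3* had the AAGGTCA element on the opposite strand at 194 to 200. A match is a description of these letters, and binding was not measured.

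The difference between the tissues was tested directly, as the change in liver minus the change in muscle in a limma fit of all 54 arrays. Between F16 and P4, 1 member changed more upwards and 30 more downwards in liver than in muscle (24.9% and 33% of all probe sets, 57.8% together), with a median difference of -0.27 over the members against -0.02 over all. ATP synthase accounted for 14 of its 20 probe sets (70%) and complex I for 16 of 37 in the downward direction. *Atp5if1* differed most, at -0.97 in liver and 0.34 in muscle, a difference of -1.31 ± 0.09 (adjusted p = 1.7e-17). *Ndufa6* was the single member that differed upwards, at 0.95 and 0.31 (difference 0.64 ± 0.12, adjusted p = 6.2e-06). *Ndufs6-ps1* differed by -0.76 ± 0.11 (adjusted p = 3.8e-08) and *Ndufa8*, which fell by 0.42 in liver and rose by 0.25 in muscle, by -0.66 ± 0.09 (adjusted p = 9.9e-09).

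Across birth, between F22 and P1, 5 members moved more upwards and 7 more downwards in liver (12.5% and 19.5% of all, 32% together), near the shares of all probe sets, and the split was 8 and 6 with quantile normalisation and 4 and 9 with centred arrays. *Ndufa6* differed by 0.69 ± 0.12 (0.73 in liver and 0.05 in muscle, limma adjusted p = 8.1e-06) and *Ndufa7* by 0.39 ± 0.10 (0.45 and 0.07, adjusted p = 0.0021). *Ndufa1* differed by 0.49 ± 0.17 (0.50 and 0.01, adjusted p = 0.02), but by 0.40 with an adjusted p of 0.062 without liver P1 replicate 1, and likewise 0.40 (0.069) without F22 replicate 2 and 0.43 (0.057) without P1 replicate 4. In the other direction *Atp5if1* differed by -0.64 ± 0.09 (adjusted p = 1.6e-07), *Ndufs4* by -0.38 ± 0.06 (adjusted p = 2.6e-06) and *Ndufa8* by -0.36 ± 0.09 (adjusted p = 0.0012).

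**Figure D5:**
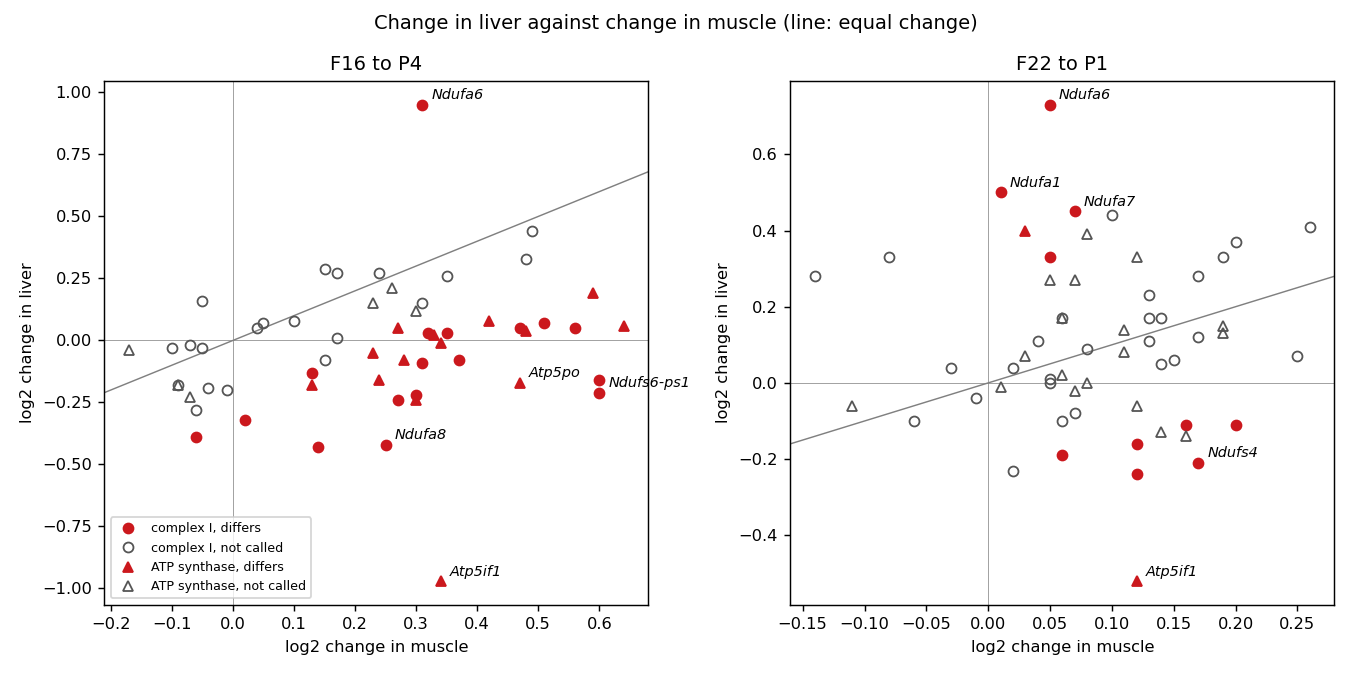
Log2 change in liver (vertical) against log2 change in muscle (horizontal) of each member probe set between F16 and P4 (left) and between F22 and P1 (right), with circles for complex I, triangles for ATP synthase and filled red symbols where the 2 changes differed at an adjusted p of at most 0.05; the grey line marks equal change, and the 5 called genes that differ most are named. Between F16 and P4 the filled symbols lie below the line except *Ndufa6*, and *Atp5if1* lies lowest.

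Other lists of the respiratory chain were counted beside the members, and differences between the lists were not tested. In muscle between F16 and P4, when 26.7% of all probe sets rose and 35% fell, 14 of 15 complex IV probe sets rose and 1 fell (median 0.32), 7 of 9 of complex III rose (median 0.31) and 3 of 4 of complex II rose (median 0.48). Of 9 genes listed as assembly genes of complex I, 1 rose and 5 fell (median -0.20). That list includes *Ndufab1*, which is itself a subunit of the complex. Between F16 and F18, in which 32 members fell (19.3% of all probe sets), 8 of the 9 assembly genes fell (median -0.28), as did 5 of 15 complex IV and none of 9 complex III probe sets (median -0.09 and 0.03). Between P1 and P4, in which 19 members rose (19.2% of all), 5 of 15 complex IV probe sets rose and 1 fell, and none of 9 of complex III rose and 1 fell. From F16 to P4 in liver, when 23.1% of all rose and 35% fell, 1 of 15 complex IV probe sets rose and 4 fell, 1 of 9 of complex III rose and 2 fell, and 1 of 9 assembly genes rose and 7 fell (median -0.25).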

How the data were processed

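The deposited table holds RMA signals on the log2 scale, made by the authors in Affymetrix Expression Console (version not given in the sources used here) from 54 arrays (24 liver, 30 muscle), 4 per liver group and 5 per muscle group. RMA corrects background, quantile-normalises and summarises probes, and it compresses small changes and changes of dim probe sets. Probe sets were named from the platform annotation: 15310 had 1 symbol, 323 several and 13581 none; both of those groups were not tested, and 1 probe set shared by *Ndufa10* and a second symbol was left out.

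Each tissue was fitted in limma (version 3.58.1, R 4.3.3) with its 6 time points as groups, and contrasts were later minus earlier, with Benjamini-Hochberg adjustment over all 15310 probe sets and a threshold of 0.05. The tissue difference came from 1 fit of all 54 arrays. The models were also tested on simulated data. Where all groups of a tissue were given the same spread, false calls stayed near the nominal level within a tissue and above it for the tissue difference. Where each group was given its own spread they exceeded that level in all 3 fits, most in muscle, so calls near the threshold are less certain than their adjusted p. The shares were 15.9% in liver, 28% in muscle and 17.7% for the tissue difference. They cannot be carried over as such, since these simulated fits made 189 to 232 calls. In the data 8887 probe sets in liver and 9455 in muscle were called between F16 and P4. The version with the same spread was added after the other had been seen. The members, gene lists, tests and naming rule were chosen with earlier results of these data known. By that rule the text names, per comparison, up to 3 called members with the largest rise and up to 3 with the largest fall whose arrays did not overlap (for the tissue difference, up to 3 each way), and always *Ndufv1*, *Ndufs1*, *Ndufa9*, *Ndufb6*, *Ndufa4*, *Ndufa4l2*, the c ring genes, *Atp5f1a*, *Atp5f1b* and *Atp5if1*, by the brightest probe set of a gene; 1 further gene of that rule is not reported here, and other genes named were chosen after their values were seen.

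Alternatives were quantile normalisation within each tissue, centring on array medians, array weights, a trended robust prior, all probe sets, bright probe sets only, 1 probe set per gene, 5 time points, a replicate block, unadjusted p as in the methods, and leaving out arrays. Gene positions and promoters are those of RefSeq GRCr8.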

Additional observations from a re-analysis of the deposited data

Results flagged for a closer look

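Within groups of 4 or 5 arrays, 172 groups of values were screened for an array far from the others (Dixon's test), and 9 had one; chance alone flags about 1 in 20 groups. Muscle P4 replicate 3 stood low for the mean over all members at 10.96 (other arrays 11.08 to 11.10), over complex I at 10.74 (10.87 to 10.89) and over ATP synthase at 11.37 (11.47 to 11.50), and for *Ndufv1* at 11.47 (11.60 to 11.63). The mean over ATP synthase was low on liver F20 replicate 1 at 10.81 (10.89 to 10.91). In liver, *Ndufs4* was high at F22 on replicate 3 at 12.35 (12.19 to 12.20), *Atp5if1* low at P4 on replicate 2 at 10.83 (10.99 to 11.01), *Ndufs1* low at F16 on replicate 4 at 10.78 (10.92 to 10.93) and *Ndufa9* high at P90 on replicate 4 at 11.10 (11.02 to 11.03).

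The change over time differed between liver and muscle, by limma's test of the difference, for the genes named in that comparison. Between F16 and P4 the change in liver minus that in muscle was 0.64 for *Ndufa6*, -1.31 for *Atp5if1*, -0.76 for *Ndufs6-ps1* and -0.66 for *Ndufa8*. Between F22 and P1 it was 0.69 for *Ndufa6*, 0.49 for *Ndufa1*, 0.39 for *Ndufa7*, -0.64 for *Atp5if1*, -0.38 for *Ndufs4* and -0.36 for *Ndufa8*.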

How the results depend on the processing

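Counts of called members stayed within 1.5 times of the reported ones for liver F22 to P1, P4 to P90, F16 to P4 and F16 to P90, for muscle P1 to P4 and F16 to P4, for liver minus muscle F16 to P4 and for both tests over time, under all settings and with any 1 array left out. Elsewhere array weights gave 24 for liver F16 to F20, 8 for muscle F20 to F22 and 20 for muscle F22 to P1. Leaving out the arrays that stand apart gave 17 for muscle F18 to F20, 7 for muscle F20 to F22 and 20 for muscle F22 to P1. An unadjusted p of at most 0.05 gave 26 for liver F16 to F20, 21 for liver P1 to P4, 22 for liver minus muscle F22 to P1, 5 for muscle F20 to F22 and 16 for muscle F22 to P1. With 1 array left out the counts ran from 9 to 18 for liver F16 to F20, from 13 to 26 for liver F20 to F22, from 7 to 12 for liver P1 to P4, from 20 to 41 for muscle F16 to F18, from 19 to 37 for muscle F18 to F20 and from 5 to 12 for muscle F22 to P1.

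Signs turned for changes that were between -0.11 and 0.04 as reported. With quantile normalisation, Atp5f1a liver F16 to P90 was 0.22, Atp5mc1 liver F16 to P90 0.08, Atp5mc3 liver F16 to P90 0.07, Ndufb6 liver F16 to P90 0.27, Ndufv1 liver F16 to P90 0.09 and Ndufb6 liver F16 to P4 0.05; the last ran from -0.04 to 0.00 with 1 array left out. With centred arrays, Ndufa4 muscle F16 to P4 was -0.02, Ndufa9 liver F16 to P4 -0.01 and Ndufv1 liver F16 to P4 -0.01. Between F16 and P90 in liver, Atp5f1a, Ndufb6 and Ndufv1 passed the test as rises with quantile normalisation (limma adjusted p = 4.4e-05, 7.8e-04 and 0.045). The other values with a changed sign did not pass. The causes were not tested. Of the values of named genes under the other settings, 908 kept direction and call, 8 lost the call, 7 gained it and 9 changed sign. With an array left out these numbers were 2253, 7, 1 and 1. Values that changed sign were counted only as such, whether or not they passed the test.

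Within a tissue, arrays of different time points with the same replicate number did not deviate together on average. The mean r was 0.00 over 60 pairs in liver (from -0.20 to 0.28) and -0.02 over 75 in muscle (from -0.40 to 0.36). Whether liver and muscle arrays of the same age and replicate number came from the same animal was not tested. With the replicate number as a block within each tissue, 31 members differed for liver minus muscle F16 to P4 and 36 rose for muscle F16 to P4. No call of a named gene changed in 90 values. Small changes set the limit, since arrays of a group spread by up to 0.38 (SD).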
